A study of Mus musculus with 8 samples.

Results

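Trim28 and its heterochromatin partners were followed across the cell types of the developing mouse kidney. The members are 10 genes chosen by symbol from the 32285 genes of the single-cell matrix. They are the corepressor Trim28, its relatives Trim24 and Trim33, the histone methyltransferase Setdb1 with its cofactors Atf7ip and Resf1, the heterochromatin protein 1 (HP1) genes Cbx1, Cbx3 and Cbx5, and Morc3. The set was chosen with earlier results of these data known. All 10 were found, and all passed the filter on low counts in each of the 9 classes of the nephron lineage. Outside it, Trim28, Cbx1, Cbx3 and Cbx5 passed in 8 classes and the other 6 members in 7.

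TRIM28 has no DNA-binding specificity of its own and is brought to chromatin by KRAB zinc finger proteins. There it gathers SETDB1, which methylates lysine 9 of histone H3, and HP1 proteins, which bind that mark and compact the chromatin. In embryonic cells this machinery is best known for silencing endogenous retroviruses. In the kidney, nephrons arise from progenitors of the cap mesenchyme that express Six2, whereas the collecting duct, stroma, vessels and blood cells have other origins.

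Kidney cells of 4 male embryos were analysed from one pool. The embryos were 2 Trim28delta/delta (ko, mice 1 and 2) and 2 Trim28f/f (wt, mice 3 and 4). They were taken at embryonic day 17.5 by the labels and a day later by the study's methods. The pool also held cells with 4 further multiplexing tags that the deposited list does not name, which were left out. The ko mice combine the Trim28f allele with a Six2-EGFP/cre transgene, which recombines it in nephron progenitors and all cells that derive from them. The labels name no transgene for the wt mice, so an effect of the transgene and an effect of the deletion cannot be told apart. The 6 bulk samples of newborn kidney were not analysed here.

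After filtering and tag assignment, 1316, 1491, 2749 and 1807 cells came from mice 1 to 4, with median depths between 16386 and 17354 UMIs (unique molecular identifiers, one per captured RNA molecule) per cell. Clusters were named by marker genes, with "-like" added because no annotation of the authors was used here. Of 94 markers of the classes found, 81 were highest in their own class, but only 2 of 6 for SSB-like and 2 of 5 for ErPT-like cells. The SSB-like cluster was led by cell cycle genes, and each of its cells was called in S or G2/M phase, as was each cell of cluster 14. The nephron lineage held progenitors (NPC), proximal tubule (PT) and its early form (ErPT), S-shaped bodies (SSB), podocytes, distal tubule (DT) and loop of Henle (LOH). Clusters 4 and 8 met no class and were placed with the nephron lineage because S-shaped body and renal vesicle markers scored highest there. The other 8 classes were ureteric bud (UB), collecting duct (CD), stroma, mural, endothelial, immune and erythroid cells and cluster 14, in which stromal markers scored highest. UMIs were summed per mouse and class, and levels are given as CPM, UMIs scaled to one common library total, after TMM scaling over all sums. Levels are compared within a gene, because a 3′ library reads one end of each transcript.

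Trim28 (ENSMUSG00000005566) lies on the plus strand of chromosome 7 from 12999114 to 13031035 in GENCODE M21 of GRCm38. Its coding transcript starts at 13024152 and has 17 exons. By the study's description loxP sites lie in introns 3 and 14, and exon 14 is also listed among the exons that remain. In either reading the last exon, from 13030689 to 13031035, lies after the floxed segment. UMI counts therefore measure the amount of transcript that ends there and do not check the deletion itself.

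**Figure D1:**
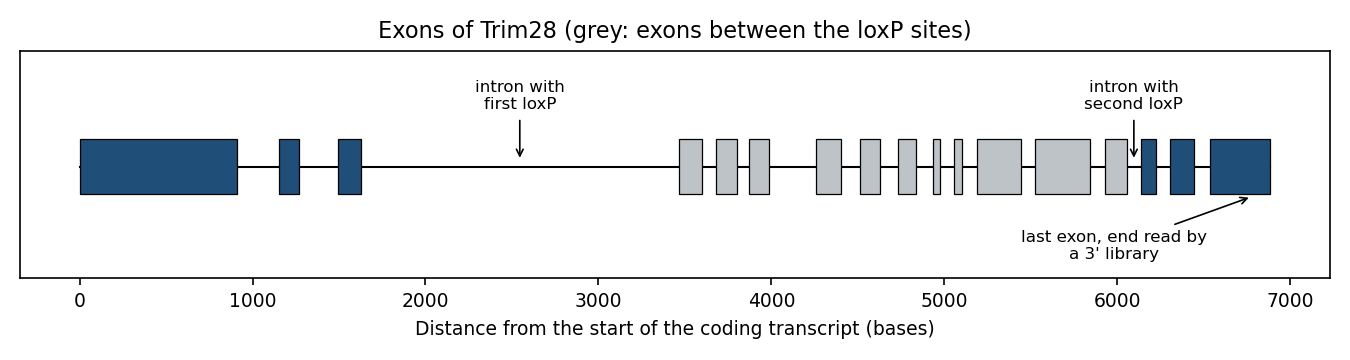
Exons of the coding transcript of Trim28, drawn to scale as boxes along the distance in bases from its start. Grey boxes are the exons between the introns that hold the loxP sites, with exon 14 drawn among them, and the last exon, whose end a 3′ library reads, lies to the right of the second site.

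The 2 members with a change between the genotypes that passed the main edgeR test in any class were Trim28 and Resf1. The 250 bases before their RefSeq starts (GRCm38.p6, both on the plus strand) are shown, with CpG dinucleotides in capitals, as the annotated promoters of these genes. The start that was used was not measured, and the annotation holds another Trim28 transcript that starts at 12999114. They lie at chr7:13023902-13024151 for Trim28 and at chr6:149309164-149309413 for Resf1.
Trim28: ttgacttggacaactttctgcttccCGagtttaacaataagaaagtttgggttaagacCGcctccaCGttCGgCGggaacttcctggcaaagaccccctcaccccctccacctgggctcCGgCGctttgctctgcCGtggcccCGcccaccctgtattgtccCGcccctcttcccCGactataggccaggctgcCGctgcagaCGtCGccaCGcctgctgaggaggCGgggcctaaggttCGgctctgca
Resf1: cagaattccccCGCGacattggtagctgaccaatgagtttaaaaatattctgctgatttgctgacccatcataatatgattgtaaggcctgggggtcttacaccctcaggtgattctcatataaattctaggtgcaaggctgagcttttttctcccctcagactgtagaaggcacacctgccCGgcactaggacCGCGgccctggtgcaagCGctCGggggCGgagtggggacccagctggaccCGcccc
The Trim28 stretch holds 17 CpG, and 76.5% of the 32851 promoters in the RefSeq table hold fewer. The Resf1 stretch holds 9, and 59.7% hold fewer. These counts describe the sequence and were not related to expression.

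Trim28 was lower in both ko mice than in both wt mice in all 9 classes of the nephron lineage, and in 7 of them the fall passed the test. In NPC-like cells Trim28 stood at 25.1 and 21.6 CPM in the ko mice and at 137 and 168 CPM in the wt mice. On the log2 scale the ko level was changed by -2.66 (SE 0.21), with an adjusted p of 3.16e-04 in the quasi-likelihood test of edgeR, adjusted after Benjamini and Hochberg over 11196 genes. The mean of the ko mice was 15.3% of that of the wt mice. For comparison, 1.02% of all genes tested in NPC-like cells were called lower in ko, and 27.2% of the genes with a mean of at least 10 CPM had both ko mice below both wt mice.

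Other early classes fell too. In SSB-like cells Trim28 stood at 25.4 and 29.8 CPM in ko and at 143 and 160 CPM in wt (log2 change -2.41, SE 0.16, adjusted p = 0.00126 by edgeR). In ErPT-like cells the levels were 24.5 and 27.6 CPM against 101 and 114 CPM (log2 change -1.95, SE 0.19, adjusted p = 0.00549 by edgeR). Clusters 4 and 8 also fell, with log2 changes of -1.86 and -2.35 (adjusted p = 0.00304 and 0.00106 by edgeR). The share of all genes called lower in ko was 0.017% in SSB-like cells, 0.0442% in ErPT-like cells, 0.256% in cluster 4 and 0.0591% in cluster 8.

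In the differentiated segments the wt level was lower than in progenitors, while the ko level stayed between 19.0 and 28.4 CPM. In PT-like cells Trim28 stood at 27.96 and 27.8 CPM in ko and at 66.6 and 85.2 CPM in wt, a log2 change of -1.50 (SE 0.16, adjusted p = 0.0161 by edgeR, background 0.0804% called lower). In DT-like cells the levels were 19.5 and 28.4 CPM against 80.6 and 63.1 CPM, a log2 change of -1.61 (SE 0.26, adjusted p = 0.0106 by edgeR, background 0.325%). The genotypes did not overlap in either class, as for 13.95% and 17.1% of genes with both ko mice below both wt mice.

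LOH-like and Podocyte-like cells had the same order without passing the test, as had 21.1% and 22.8% of genes there. LOH-like cells held 20.0 and 25.3 CPM in ko and 72.7 and 82.9 CPM in wt (log2 change -1.75, SE 0.22, adjusted p = 0.0578 by edgeR). DESeq2 called that change, among 8 of 10755 genes it called lower. Podocyte-like cells were few, with 10 and 4 Trim28 UMIs in the ko mice, and held 24.4 and 19.0 CPM against 72.6 and 72.5 CPM (log2 change -1.61, SE 0.40, adjusted p = 0.21 by edgeR, background 0.0181% called lower).

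Outside the nephron lineage Trim28 was not called in any of 8 classes by edgeR or DESeq2, and none had an unadjusted p under 0.05 by edgeR. Of all genes, 0.0288% were called in Immune-like cells, each of them lower in ko, 0.0276% in cluster 14, with 0.0138% in each direction, and 0.0% in the other 6 classes. Log2 changes of Trim28 lay between -0.20 and 0.20. Stroma-like cells held 94.9 and 90.6 CPM in ko and 79.9 and 107 CPM in wt, with the wt mice on either side of the ko mice (log2 change 0.01, SE 0.25). UB-like cells, the source of the collecting duct, held 135 and 128 CPM in ko and 122 and 145 CPM in wt (log2 change -0.01, SE 0.22). In Mural-like cells alone both ko mice lay below both wt mice, at 84.3 and 98.1 CPM against 101 and 102 CPM, as for 20.5% of genes there.

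**Figure D2:**
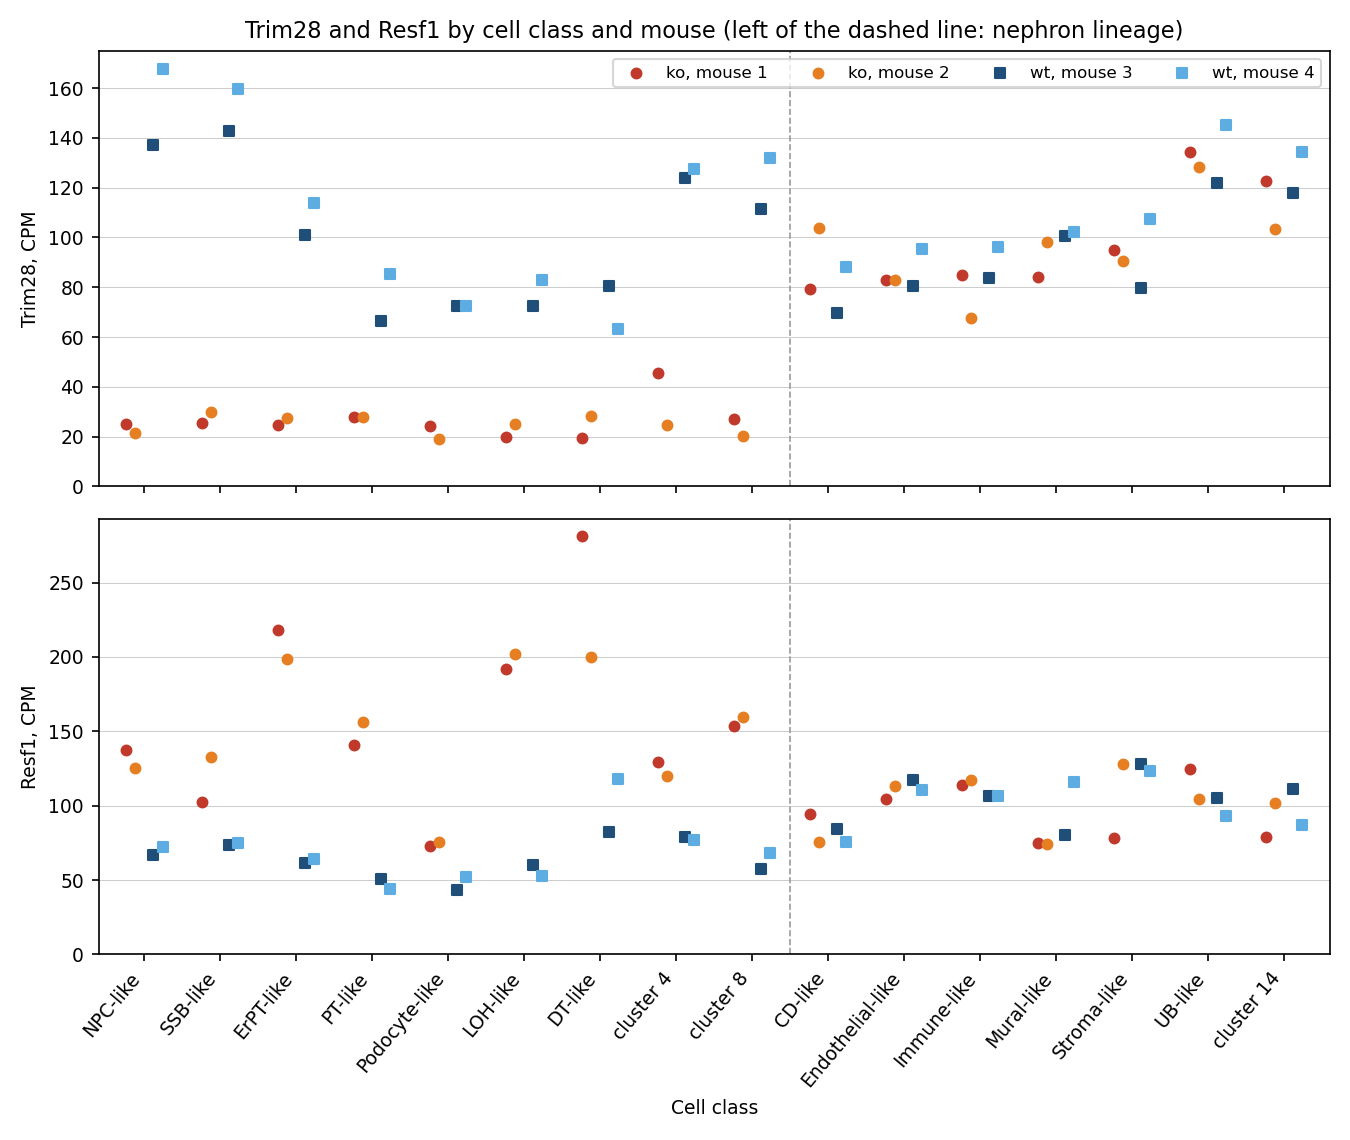
Trim28 (upper panel) and Resf1 (lower panel) in CPM by cell class, with one point per mouse, circles for the ko mice and squares for the wt mice; the erythroid class, whose UMIs are mostly globin, is not drawn. Left of the dashed line every ko point for Trim28 lies at or below 45.6 CPM and every wt point at or above 63.1 CPM, and every ko point for Resf1 lies above both wt points of its class.

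The difference between lineages was tested directly, with the mouse as a block. The Trim28 change in NPC-like cells differed from that in Stroma-like cells by -2.68 on the log2 scale (SE 0.25, adjusted p = 1.84e-05 by edgeR, 0.517% of 10636 genes called). The change in PT-like cells differed from that in Stroma-like cells by -1.49 (SE 0.24, adjusted p = 0.0123 by edgeR, 0.26% of 12687 genes called). On unscaled CPM, the log2 ratio of NPC-like over PT-like Trim28 levels was 0.19 and -0.04 in ko and 1.23 and 1.03 in wt. Among cells outside S and G2/M phase it was -0.52 and 0.57 in ko, from 2 and 10 NPC-like UMIs, and 0.89 and 0.61 in wt. The change also differed between progenitors and proximal tubule, by -1.202 (SE 0.23, adjusted p = 0.0163 by edgeR, 1.33% of 13073 genes called). The latter 2 calls were lost without mouse 1, without mouse 2 and with free RNA subtracted.

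Among the wt mice the Trim28 level ranged over classes from a mean of 152 CPM in NPC-like cells to 71.8 CPM in DT-like cells, leaving the erythroid class aside. NPC-like, SSB-like and UB-like cells came first and PT-like, Podocyte-like and DT-like cells last. Neighbours in that order always overlapped between mice. In the ko mice the class means of the nephron lineage ran from 21.7 CPM in Podocyte-like cells to 35.2 CPM in cluster 4.

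The remaining Trim28 signal was spread over many cells. Of NPC-like cells, 23 of 46 in mouse 1 and 49 of 73 in mouse 2 held no Trim28 UMI, against 28 of 208 in mouse 3 and 34 of 388 in mouse 4. Cells with 3 or more UMIs numbered 0 and 1 in the ko mice and 91 and 202 in the wt mice. After each cell was thinned to 6800 UMIs, the share with a Trim28 UMI was 19.6% (95% exact binomial interval 9.36 to 33.9%) and 15.1% (7.77 to 25.4%) in mice 1 and 2, and 58.2% (51.2 to 65.0%) and 67.8% (62.9 to 72.4%) in mice 3 and 4. The ko and wt intervals did not overlap. These intervals cover counting error only.

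In PT-like cells 12 of 310 and 22 of 338 ko cells held 3 or more, against 33 of 149 and 64 of 183 wt cells. In Stroma-like cells 9 of 67 and 7 of 62 ko cells and 19 of 157 and 13 of 87 wt cells did so, and the shares of the genotypes overlapped there.

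Free RNA from broken cells also gives UMIs. It held Trim28 at 115 CPM in barcodes of 10 to 100 UMIs. Judged from globin UMIs, free RNA made up 7.83% and 4.37% of the UMIs of NPC-like cells in mice 1 and 2, which would give 8.998 and 5.02 CPM of Trim28. The unscaled levels there were 28.1 and 24.1 CPM. With the median over cells in place of the sum, which single cells rich in globin move less, the shares were 2.61% and 2.84% and the expected levels 3.001 and 3.27 CPM. Over the 18 sums of a ko mouse and a class of the nephron lineage, the free RNA expected from the sums came to between 6.85% and 166% of the Trim28 level (median 34.3%), and that from the median over cells to between 7.31% and 18.9% (median 11.5%). The estimate from the sums was 18.4 of 26.1 CPM in ErPT-like cells of mouse 1, 17.2 of 27.5 CPM in LOH-like cells of mouse 2 and 40.1 against 24.1 CPM in Podocyte-like cells of mouse 2. The 2 estimates thus differ widely in some classes, and other sources of the remaining counts were not tested.

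**Figure D3:**
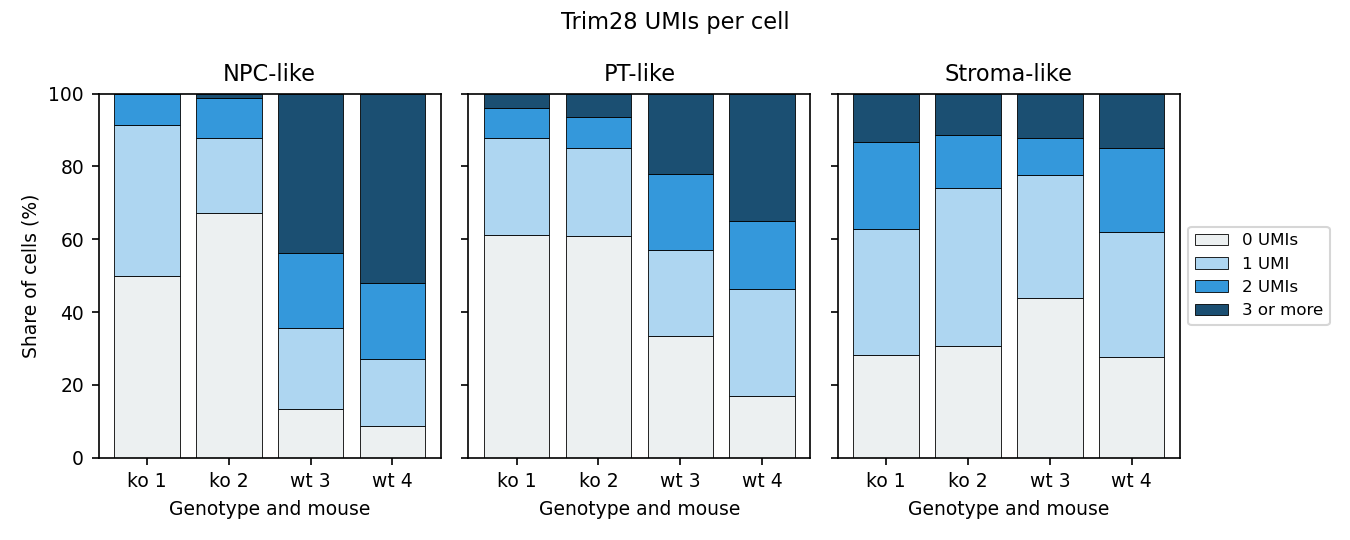
Share of cells in percent with 0, 1, 2 and 3 or more Trim28 UMIs in NPC-like, PT-like and Stroma-like cells, with one bar per mouse and no thinning. In NPC-like cells the darkest segment holds 0 and 1 cells in the ko mice against 91 and 202 cells in the wt mice, and in Stroma-like cells the darkest segments of the genotypes overlap in size.

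Resf1, retroelement silencing factor 1, binds SETDB1 and takes part in the silencing of endogenous retroviruses. It was higher in both ko mice than in both wt mice in all 9 classes of the nephron lineage, and in 6 of them the rise passed the test. In ErPT-like cells Resf1 stood at 218 and 199 CPM in ko and at 61.2 and 64.3 CPM in wt. The log2 change was 1.81 (SE 0.15, adjusted p = 0.00192 by edgeR, background 0.363% called higher in ko), and 11.7% of genes with a mean of at least 10 CPM had both ko mice above both wt mice. Over the 9 classes that share ran up to 26.0%, in PT-like cells.

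Resf1 also rose in the tubule segments. In PT-like cells Resf1 stood at 141 and 156 CPM in ko and at 50.6 and 44.1 CPM in wt (log2 change 1.61, SE 0.13, adjusted p = 0.00552 by edgeR, background 0.418%). In LOH-like cells the levels were 192 and 202 CPM against 60.3 and 52.4 CPM (log2 change 1.83, SE 0.17, adjusted p = 0.0328 by edgeR, background 0.0744%). In DT-like cells they were 281 and 200.3 CPM against 82.5 and 118 CPM (log2 change 1.28, SE 0.23, adjusted p = 0.0182 by edgeR, background 0.422%). In each of these classes the mean of the ko mice was between 2.4 and 3.49 times that of the wt mice.

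Among the remaining classes, NPC-like cells held 138 and 125 CPM in ko and 67.1 and 72.1 CPM in wt (log2 change 0.97, SE 0.17, adjusted p = 0.0191 by edgeR, background 0.688%). Cluster 8 rose by a log2 change of 1.36 (SE 0.21, adjusted p = 0.0084 by edgeR, background 0.325%). SSB-like cells, cluster 4 and Podocyte-like cells had log2 changes of 0.70, 0.69 and 0.74 (adjusted p = 0.27, 0.0571 and 0.685 by edgeR), which did not pass. The share of genes called higher was 0.187%, 0.578% and 0.0907% in these classes.

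Resf1 was tested in 7 classes outside the nephron lineage and was called in none by edgeR or DESeq2, and none had an unadjusted p under 0.05 by edgeR. Log2 changes lay between -0.28 and 0.21. Stroma-like cells held 78.5 and 128 CPM in ko and 128 and 123 CPM in wt, so that 1 ko mouse was low and the other within the wt range. Endothelial-like cells held 104 and 113 CPM in ko and 118 and 111 CPM in wt.

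The Resf1 change in PT-like cells differed from that in Stroma-like cells by 1.91 on the log2 scale (SE 0.23, adjusted p = 0.00136 by edgeR, 33 of 12687 genes called). The change in NPC-like cells differed from that in Stroma-like cells by 1.24 (SE 0.24, adjusted p = 0.0211 by edgeR, 55 of 10636 genes called). Between NPC-like and PT-like cells the difference was -0.68 (SE 0.19) and did not pass (adjusted p = 0.134 by edgeR). The 2 calls were lost without mouse 1 and with free RNA subtracted.

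In the wt mice Stroma-like cells had the highest Resf1 level (mean 126 CPM), followed by Endothelial-like (114 CPM) and Immune-like cells (107 CPM). The ranges of these 3 classes did not overlap with each other. PT-like and Podocyte-like cells (47.4 and 47.5 CPM) were the lowest outside the erythroid class. In the ko mice DT-like, ErPT-like and LOH-like cells, with means of 241, 208 and 197 CPM, stood above the 103 CPM of Stroma-like cells.

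With 2 mice per genotype, several of these calls rest on each ko mouse. Without mouse 1 or mouse 2 the Trim28 change in ErPT-like cells had adjusted p = 0.227 and 0.14 by edgeR, and the Resf1 change in NPC-like cells adjusted p = 0.59 and 0.31 by edgeR, with log2 values of 0.90 and 1.03. The Resf1 calls in ErPT-like and LOH-like cells were lost without either ko mouse too (adjusted p = 0.165 and 0.246 without mouse 1 by edgeR), and both DT-like calls without mouse 1 (adjusted p = 0.0572 for Trim28 and 0.0855 for Resf1 by edgeR). Without mouse 2 the Trim28 change in PT-like cells had adjusted p = 0.0881 by edgeR. Subtracting free RNA ended the calls of both genes in DT-like cells (adjusted p = 0.428 and 0.46 by edgeR), that of Trim28 in cluster 4 (0.058) and that of Resf1 in LOH-like cells (0.0816). The log2 changes of Resf1 with free RNA subtracted were 1.2 in DT-like and 1.95 in LOH-like cells, and those of Trim28 -1.68 in DT-like cells and -2.27 in cluster 4. The Trim28 change grew to -2.92 in ErPT-like cells, where it remained called, and to -2.77 in LOH-like cells, where it was not. The subtraction used the free RNA share from the sums, which single cells rich in globin move. In ErPT-like cells that share was 16.0% and 11.7% in the ko mice and 4.69% and 3.71% in the wt mice. By the median over cells it lay between 2.63% and 2.99% there. The Trim28 call in DT-like cells was also lost with the tags scaled across cells (adjusted p = 0.099 by edgeR), a setting chosen after seeing the data.

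Trim24 and Trim33 encode TIF1 relatives of TRIM28. Neither was called in any class by edgeR or DESeq2. Of all genes, edgeR called in either direction 1.71% in NPC-like, 0.204% in SSB-like, 0.407% in ErPT-like, 0.498% in PT-like, 0.747% in DT-like, 0.109% in Podocyte-like and 0.0744% in LOH-like cells, 0.834% in cluster 4 and 0.384% in cluster 8. Trim24 had a positive log2 change in all 9 classes of the nephron lineage, from 0.24 in ErPT-like to 1.70 in Podocyte-like cells, with an unadjusted p under 0.05 in 7. Such a p was held by 5.88% to 9.75% of all genes by class. In 8 of these classes both ko mice lay above both wt mice, where 13.6% to 26.0% of genes did so by class.

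PT-like cells held 71.9 and 69.4 CPM of Trim24 in ko and 43.3 and 44.6 CPM in wt (log2 change 0.64, SE 0.12, adjusted p = 0.114 by edgeR). NPC-like cells held 90.2 and 85.2 CPM against 53.3 and 65.8 CPM (log2 change 0.61, SE 0.19, adjusted p = 0.228 by edgeR). Podocyte-like cells held 75.6 and 94.8 CPM against 24.5 and 31.1 CPM (log2 change 1.70, SE 0.37, adjusted p = 0.155 by edgeR). The genotypes were apart in each of these classes, but none of the values passed the test over all genes.

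Without the filter on low counts Trim24 was called higher in PT-like cells (adjusted p = 0.00356 by edgeR), Podocyte-like cells, cluster 4 and cluster 8, and that setting called 0.279% to 1.58% of all genes higher in these classes. It was also called in Podocyte-like cells with log normalization (adjusted p = 0.0431 by edgeR) and with a minimum of 2500 UMIs (adjusted p = 0.0413 by edgeR), where 0.432% and 0.365% of all genes were called higher. Outside the nephron lineage it had an unadjusted p under 0.05 in Immune-like and Mural-like cells, with log2 changes of 1.12 and 0.68. In these classes 4.44% and 4.10% of all genes had such a p. In Stroma-like cells Trim24 had its highest mean over the 4 mice, and stood at 88.3 and 95.6 CPM in ko and at 90.1 and 92.5 CPM in wt. Its range there overlapped that in cluster 8, which ran from 57.1 to 112 CPM. The difference of its change between PT-like and Stroma-like cells was 0.63 (SE 0.23, adjusted p = 0.581 by edgeR).

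Trim33 differed little by genotype, with log2 changes between -0.40 and 0.30 in the nephron lineage and no unadjusted p under 0.05. Its level was highest in cluster 4, at 71 to 79 CPM over the 4 mice, and that range overlapped those of LOH-like and Stroma-like cells. The lowest mean, 35 CPM, was in Mural-like cells.

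**Figure D4:**
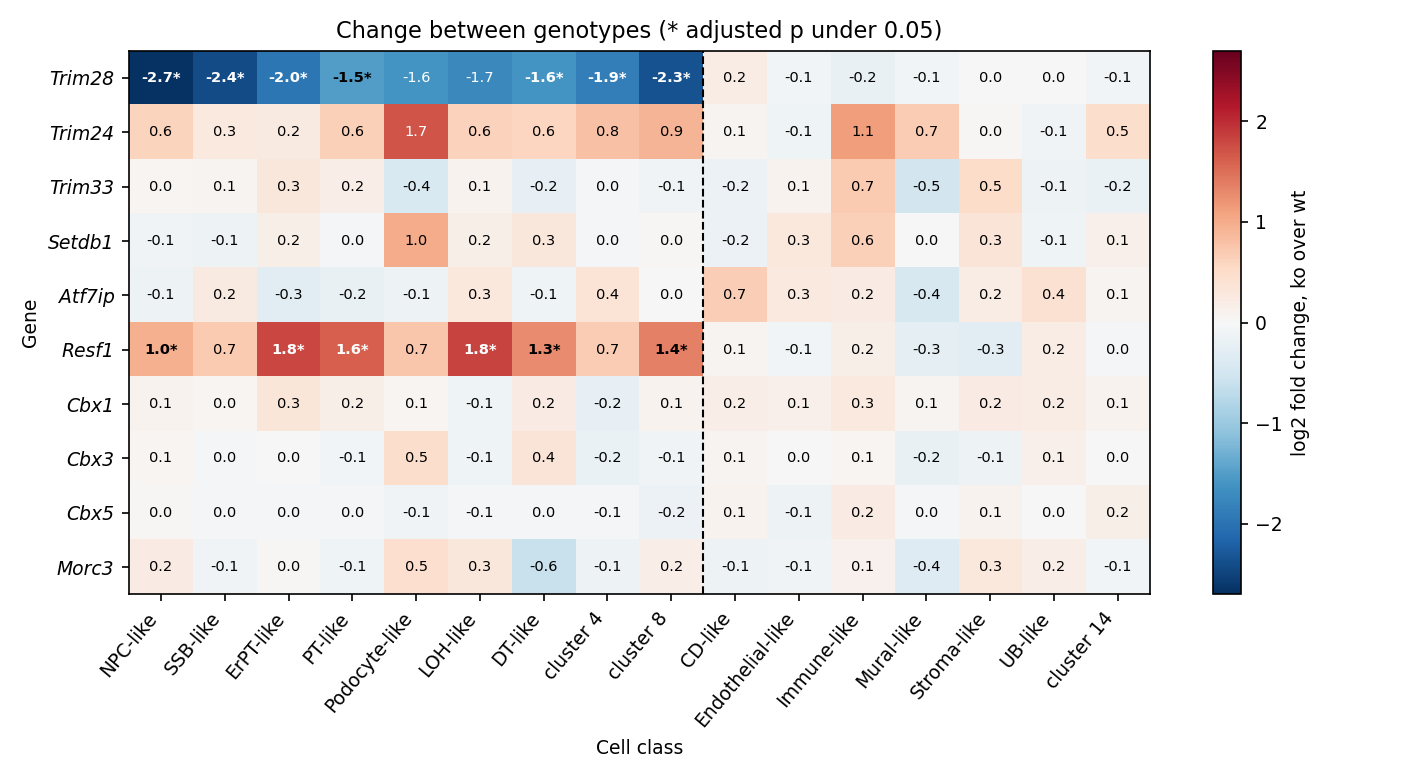
Log2 fold change of ko over wt for the 10 members (rows) in 16 cell classes (columns), with blue for lower and red for higher in ko, the value printed in each field and an asterisk where the adjusted p by edgeR is under 0.05. Left of the dashed line the Trim28 row is blue throughout with 7 asterisks and the Resf1 row red throughout with 6, and no other member has one.

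Setdb1 is the methyltransferase that TRIM28 recruits, and Atf7ip protects it from degradation and keeps it in the nucleus. Neither passed the test in any class, by edgeR or by DESeq2. Of all genes, edgeR called at most 191 of 11196 in a class and DESeq2 at most 105 of 11196. In NPC-like cells Setdb1 stood at 48.3 and 59.2 CPM in ko and at 54.8 and 65.6 CPM in wt, with the genotypes overlapping (log2 change -0.10, SE 0.21). The single unadjusted p under 0.05 for Setdb1, in Podocyte-like cells, went with 46.4 and 37.9 CPM in ko and 27.5 and 14.5 CPM in wt (log2 change 1.01, SE 0.44, adjusted p = 0.647 by edgeR). Atf7ip had log2 changes between -0.29 and 0.37 in the nephron lineage. In CD-like cells it stood at 84.5 and 89.0 CPM in ko and at 38.4 and 71.4 CPM in wt (log2 change 0.66, SE 0.32, adjusted p = 0.9 by edgeR).

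The HP1 genes were called in no class by edgeR or DESeq2. These tests called at most 191 and 105 of 11196 genes in a class, both in NPC-like cells. Cbx1 encodes HP1 beta, Cbx3 HP1 gamma and Cbx5 HP1 alpha. Over all classes none of the 3 had an unadjusted p under 0.05. Log2 changes in the nephron lineage lay between -0.21 and 0.33 for Cbx1, between -0.18 and 0.48 for Cbx3 and between -0.16 and 0.03 for Cbx5. Both ko mice nevertheless lay below both wt mice for Cbx5 in 5 of these 9 classes, where 20.7% to 29.2% of genes did so. For Cbx1 both ko mice lay above both wt mice in 3 classes, where 11.7% to 26.0% of genes did so, and below them in 1, where 22.2% did.

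Morc3, an ATPase of the MORC family with a part in silencing retroelements, had log2 changes between -0.60 and 0.45 in the nephron lineage and no unadjusted p under 0.05. Over the 8 members other than Trim28 and Resf1, 131 tests of a gene in a class gave 0 calls by edgeR and 0 by DESeq2. Of all genes, edgeR called at most 191 of 11196 in a class and DESeq2 at most 105 of 11196, both in NPC-like cells. At such shares 0 calls say little about these members. An unadjusted p under 0.05 by edgeR was held by 10 of the 131 tests (7.63%), where 6.74% of all genes over all classes had one. They were 8 of 72 tests (11.1%) in the nephron lineage, where 5.88% to 9.75% of all genes had such a p by class. Outside it they were 2 of 59 (3.39%), where 3.61% to 7.55% had. Of the 10, 9 were of Trim24.

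Across classes the HP1 genes and Setdb1 were higher in progenitors than in the proximal tubule. Cbx1 was highest in NPC-like cells, at 415 to 520 CPM over the 4 mice, and SSB-like cells followed at 403 to 503 CPM. PT-like cells held 175 to 227 CPM and Podocyte-like cells 152 to 163 CPM. Every NPC-like value lay above every value of those 2 classes.

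Cbx3 ran from 346 to 402 CPM in NPC-like cells and from 131 to 141 CPM in PT-like cells, which had the lowest mean. Cbx5 stood at 268 to 276 CPM in NPC-like, 255 to 299 CPM in SSB-like and 259 to 293 CPM in cluster 14 cells, and these 3 classes did not overlap with UB-like cells, the next in order at 204 to 239 CPM. Setdb1 stood at 48 to 66 CPM in NPC-like and at 30 to 33 CPM in PT-like cells. The 4 genes thus shared the contrast of progenitors with proximal tubule in every mouse, whichever its genotype.

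**Figure D5:**
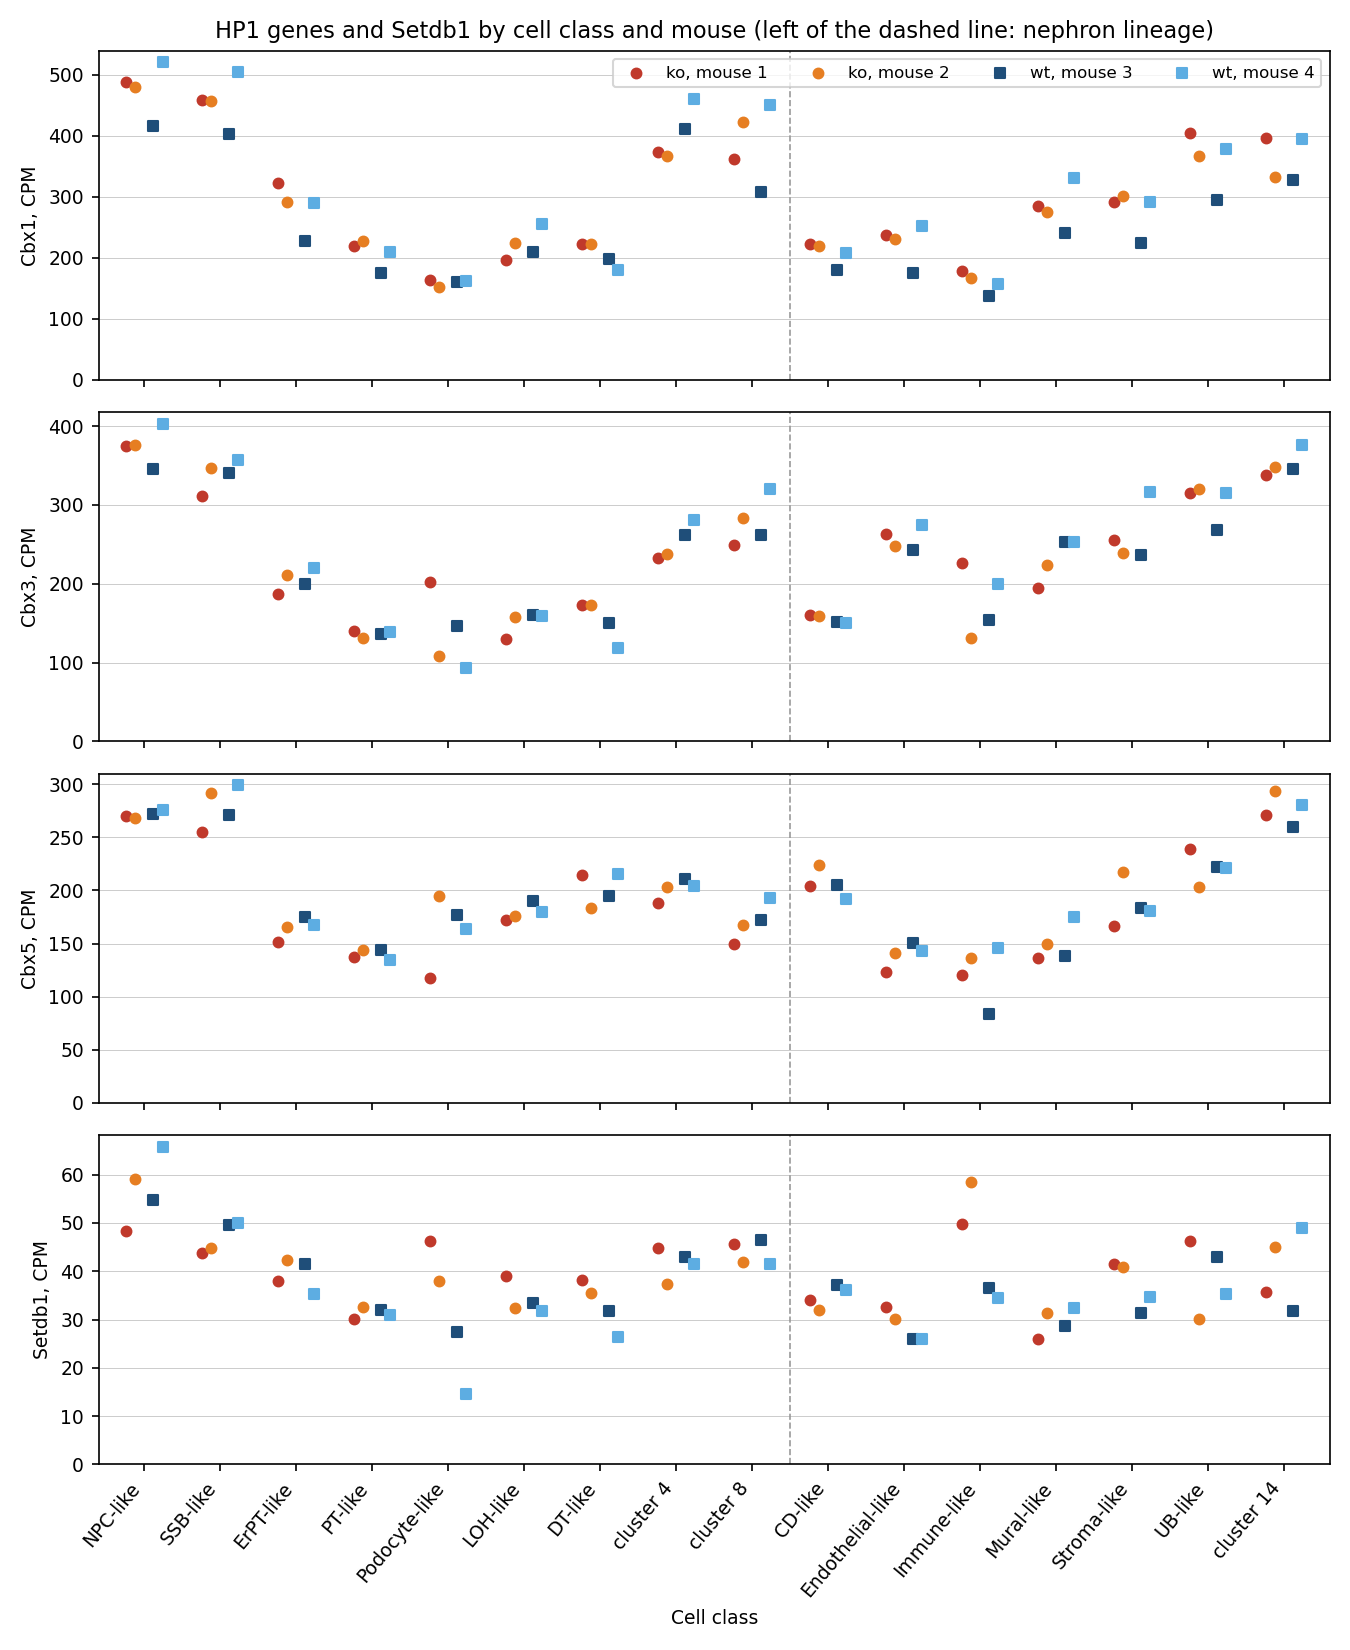
Cbx1, Cbx3, Cbx5 and Setdb1 in CPM by cell class, with one point per mouse, circles for the ko mice and squares for the wt mice. In each panel NPC-like cells lie above PT-like cells in all 4 mice, and in several classes the points of the genotypes lie apart although no change was called.

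The classes also differ in the share of cells called in S or G2/M phase, which was between 67.3% and 80.4% by mouse in NPC-like and between 3.23% and 8.05% in PT-like cells. Among all cells the log2 ratio of NPC-like over PT-like levels, on unscaled CPM, was 1.42 for Cbx1 (SD 0.06 over the 4 mice), 1.68 for Cbx3 (SD 0.15), 1.18 for Cbx5 (SD 0.11) and 1.07 for Setdb1 (SD 0.10). Among cells outside these phases, of which mouse 1 held 9 in the NPC-like class, the ratios were 1.16 (SD 0.21), 1.28 (SD 0.13), 0.38 (SD 0.21) and 1.12 (SD 0.34). The phases come from expression scores alone and mouse 1 gave 14 Cbx5 and 8 Setdb1 UMIs there, so these ratios are rough.

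Morc3 had another pattern. Immune-like cells held 91 to 110 CPM over the 4 mice, and the next class, Stroma-like, 33 to 42 CPM. PT-like cells were lowest, at 16 to 22 CPM. Atf7ip was highest in Stroma-like cells at 69 to 88 CPM, but its ranges overlapped with those of the next class.

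In the wt mice the levels of Trim28 over the 17 classes went with those of Cbx1 (Pearson r = 0.90), Setdb1 (r = 0.87) and Cbx3 (r = 0.84) on the log2 scale. Resf1 went with Trim28 less (r = 0.33) and with Trim33 inversely (r = -0.25). Among the members it went most with Morc3 (r = 0.61) and Atf7ip (r = 0.51). These are descriptions over classes that share mice and library. The genes most like Cbx3 were Hmgb1, Hmgn2 and Brca2 (r = 0.98, 0.97 and 0.97). Those most like Cbx1 were Dhx9, Set and Ilf2 (r between 0.94 and 0.95), those most like Cbx5 Srek1, Hnrnph3 and Zfp81 (r between 0.88 and 0.92), and those most like Setdb1 Zc3h18, Xrcc6 and Snrnp200 (r between 0.91 and 0.93).

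Trim24 was most like Lca5, Kifap3 and Impad1 (r between 0.87 and 0.90), Trim33 most like Efna5, Dlg3 and Yap1 (r between 0.86 and 0.92) and Morc3 most like Rnf114, Twf2 and Nek9 (r between 0.88 and 0.90). Atf7ip and Resf1 had weaker neighbours, led by Ppp2r3d (r = 0.81) and Elk3 (r = 0.86). Over all 68 sums of a class and mouse, in which the ko fall is included, the genes most like Trim28 were Plcb3, Sumo3, Nfix, Slc2a3 and Ly6h, with r no higher than 0.58. The most inverse gene was Gm11100 (r = -0.75), and Resf1 stood at r = -0.51. Sumo3 encodes a SUMO protein.

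Further genes of the pathway were counted by list. Of 46 genes in 7 lists, 0 were called in any class by edgeR or by DESeq2, over 656 tests of a gene in a class. Of all genes, at most 191 of 11196 were called in a class by edgeR and 105 of 11196 by DESeq2, so 0 calls say little about the lists. An unadjusted p under 0.05 by edgeR was held by 24 of the 656 tests (3.66%), against 6.74% of the tests of all genes over the 17 classes. The median log2 change of the list genes was -0.03 in NPC-like cells, where that of all genes was -0.01, and 0.02 in PT-like cells, where that of all genes was -0.005. Over the 17 classes this median lay between -0.06 and 0.14, the highest in Immune-like cells. The median of the 7 listed KRAB zinc finger proteins lay between -0.16 (Immune-like, 1 gene tested) and 0.44 (ErPT-like, 6 genes tested) over 16 classes. It was positive in 12 of them.

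By list, the tests with an unadjusted p under 0.05 were 10 of 215 (4.65%) for the NuRD complex (a chromatin remodeller and deacetylase that binds TRIM28). For the 7 KRAB zinc finger proteins listed they were 9 of 67 (13.4%), and for the SUMO pathway 0 of 165. They were 1 of 77 for other H3K9 methyltransferases, 2 of 60 for the HUSH complex and MORC2, and 2 of 72 for H3.3 and chromatin assembly partners. Trim66, the further TIF1 member, passed the filter on low counts in no class.

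Among the KRAB zinc finger proteins, Zfp809, which guides TRIM28 to the primer binding site of murine leukaemia proviruses, accounted for 4 of them. In ErPT-like cells it stood at 18.7 and 18.3 CPM in ko and at 6.09 and 8.26 CPM in wt (log2 change 1.48, SE 0.30, adjusted p = 0.144 by edgeR). In PT-like cells it stood at 15.4 and 16.1 CPM against 9.55 and 9.45 CPM (log2 change 0.68, SE 0.20, adjusted p = 0.293 by edgeR). In NPC-like cells it stood at 7.44 and 6.36 CPM against 5.89 and 7.78 CPM, with the genotypes overlapping. None of these passed the test.

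Six2, the source of the promoter that drives the transgene and one of the NPC markers, was lower in ko NPC-like cells, at 47.4 and 49.0 CPM against 123 and 143 CPM (log2 change -1.40, SE 0.18, adjusted p = 0.00613 by edgeR). Its part in the changes of the members was not tested.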

How the data were processed

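Kidney cells of 4 embryos, each marked by a multiplexing oligonucleotide, were sequenced as a 3′ library in a pool that held 4 further tags. The authors deposited one matrix of UMI counts per gene and barcode and a list naming the tags. The processing notes name Cell Ranger 6.0.0, the matrix header Cell Ranger 4, and the genome builds GRCm38 and mm10. The counts are raw and hold all 3921239 barcodes. A barcode was kept with 6891 or more UMIs (a cutoff by order of magnitude for 24000 cells), 200 or more genes and no more than 10% of UMIs from mitochondrial genes, which left 19272. HTODemux (Seurat 5.3.0, 8 tags, quantile 0.99) gave 7363 cells to the 4 mice, 4721 to several tags, 2680 to none and 4508 to 4 tags that the list does not name, which were not used. Scrublet marked 7.65% of the 7363 cells, and they were kept except in an alternative.

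Cells were clustered with SCTransform, 3000 variable genes without the members and pathway genes (4 left out, 1 of them a member), 30 principal components and Louvain resolution 0.8, giving 24 clusters. A cluster took the name of the marker list with the highest score. Score limits were set after the clusters were seen. Classes needed 10 cells in every mouse.

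UMIs were summed per mouse and class, with 165957 to 8663156 UMIs per sum, and tested with edgeR 4.0.16 (filterByExpr, TMM, quasi-likelihood, Benjamini-Hochberg over all genes tested, threshold 0.05), with DESeq2 1.42.0 as an alternative. SE is the log2 change divided by the root of F. With 2 mice per group an exact permutation test could not pass the threshold. The p-values rest on the spread between these mice, moderated over all genes tested. The method was tested on simulated data. It recovered 83%, 96% and 79% of 4-fold changes in NPC-like, PT-like and Stroma-like cells. Of 2-fold changes it recovered 37%, 60% and 19%. A change that was not called may therefore still be present. Free RNA was estimated per mouse and class from the 4 globin genes against barcodes of 10 to 100 UMIs. These barcodes come from the whole pool, with the tags that were not used. The genes named are the members, the fixed pathway lists, genes starting within 100000 bases of Trim28 (not reported here), and those most correlated with a member, 5 for Trim28 and 3 for each other (log2 of CPM plus 1, mean CPM of at least 10); Six2 was named after its values were seen. The members and lists were chosen with earlier results of these data known. One list gene (Fam208a) was matched by its newer symbol. Members may share reads with genes they overlap on the same strand.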

Additional observations from a re-analysis of the deposited data

Results flagged for a closer look

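The genotype changes of 2 members differed between cell classes by the test of the difference itself (edgeR, class by genotype term, mouse as a block). For Trim28 the difference of log2 changes was -2.68 between NPC-like and Stroma-like cells, -1.49 between PT-like and Stroma-like cells and -1.202 between NPC-like and PT-like cells. For Resf1 it was 1.24 between NPC-like and Stroma-like cells and 1.91 between PT-like and Stroma-like cells. The 3 comparisons share classes and mice, so these values are not independent of each other. Trim28 levels of NPC-like and PT-like cells were alike in the ko mice (log2 ratios 0.19 and -0.04 on unscaled CPM). In the wt mice they were apart (1.23 and 1.03). Among cells outside S and G2/M phase the ratios were -0.52 and 0.57 in ko, from 2 and 10 NPC-like UMIs, and 0.89 and 0.61 in wt.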

How the results depend on the processing

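No paired analysis was possible because the ko and wt mice share no number in the tag list. No change or difference that passed the test, with all mice or under an alternative, had the opposite sign under the other. Changes and differences of members that passed in neither took the opposite sign 221 times, none of them with an adjusted p by edgeR or DESeq2 under 0.661. Of the genotype changes of members under alternatives that kept all mice, 1797 kept their side of the threshold, 20 passed it newly and 5 no longer passed. Leaving out each mouse in turn, where the group left with 1 mouse is assumed to vary like the other, gave 618, 25 and 11. With 1 mouse left out, the Resf1 change in NPC-like cells ranged from 0.90 to 1.03 and the Trim28 change in PT-like cells from -1.67 to -1.30 on the log2 scale. The differences between classes ranged from -1.28 to -1.08 (Trim28, NPC-like minus PT-like), -0.81 to -0.52 (Resf1, NPC-like minus PT-like, called only without mouse 3, adjusted p = 0.0011 by edgeR), 0.87 to 1.68 (Resf1, NPC-like minus Stroma-like), 1.63 to 2.21 (Resf1, PT-like minus Stroma-like) and -1.51 to -1.47 (Trim28, PT-like minus Stroma-like). With free RNA subtracted, 4 of these differences no longer passed, at -1.27, 1.28, 1.99 and -1.83 for Trim28 NPC-like minus PT-like, Resf1 NPC-like minus Stroma-like, Resf1 PT-like minus Stroma-like and Trim28 PT-like minus Stroma-like. The cause was not tested.

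The log2 ratio of NPC-like over PT-like cells moved to 1.16 for Cbx1, 1.28 for Cbx3 and 0.38 for Cbx5 without cells in S or G2/M phase, and for Cbx1 to 1.49 at resolution 0.4 and 1.5 with log normalization. Thinning moved the shares of NPC-like cells with a Trim28 UMI to 19.6%, 15.1%, 58.2% and 67.8% in mice 1 to 4. The free RNA share in NPC-like cells, as a mean over mice, was 2.71% by the median over cells, an alternative chosen after seeing the data. Without mouse 4, which leaves 1 wt mouse, Atf7ip was called higher in CD-like, LOH-like and SSB-like cells and cluster 4, Cbx1 in CD-like and ErPT-like cells, Morc3 lower in CD-like cells, and Trim24 higher in 7 classes. This setting called between 1.8% and 16.7% of all genes in the same direction in those classes, so these calls say little about the members. Without mouse 3 Trim24 was called higher in PT-like cells and clusters 4 and 8, where 1.03% to 2.66% of all genes were. Without S and G2/M cells the genotype test had too few cells for NPC-like, SSB-like and UB-like cells and cluster 14, and no SSB-like class was found at resolution 1.2 or with log normalization. Podocyte-like cells held 10 and 4 Trim28 UMIs in the ko mice, so depth limits their values.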
